A study of Homo sapiens with 6 samples.

Results

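The Polycomb genes examined here were the 10 genes EZH1, EZH2, EED, SUZ12, JARID2, BMI1, RNF2, CBX2, CBX7 and CBX8, taken by name from a table of 26334 genes. Each of the 10 was present and each had enough reads to be tested. They were measured by RNA-seq of poly-A RNA in MCF10DCIS.com, a human breast cancer cell line of the MCF10A lineage that forms lesions resembling ductal carcinoma in situ in mice. The cells carried a lentiviral vector that expresses a short hairpin from a U6 promoter, together with TagRFP and a puromycin resistance gene from a UbiC promoter. In the 3 control libraries (shLuc) the hairpin targets luciferase, and in the 3 silenced libraries (shWDR5) it targets WDR5, the WD40-repeat subunit of the H3K4 methyltransferase complexes. Both groups were selected with puromycin at 3 µg/ml and grown in DMEM/F12 with horse serum. All 6 libraries come from this line alone. The study's methods describe pooled WDR5 hairpins in this line, but the labels do not say which hairpins these libraries carried or whether replicates were separate infections, so p-values measure only the spread between these libraries.

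Polycomb proteins keep genes silent through a pair of chromatin-modifying complexes. PRC2 methylates lysine 27 of histone H3 through EZH2 or its paralog EZH1, held by SUZ12 and EED, and PRC1 places ubiquitin on histone H2A through RNF2 (RING1B) or RING1, joined to a PCGF protein such as BMI1. In canonical PRC1 a CBX protein docks on the methyl mark left by PRC2. Polycomb silencing and the H3K4 methylation that depends on WDR5 are classical opposites at developmental genes, EZH2 is often abundant in aggressive breast cancer, and WDR5 itself has been found in the PCGF6 form of PRC1.

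The libraries held 38218108 to 57640167 counted reads. WDR5, which checks the labels, was at 16.5, 15.2 and 16.1 RPKM (reads scaled to exon length and library size) in shLuc and at 7.34, 7.65 and 6.52 RPKM in shWDR5, a log2 fold change of -1.15 ± 0.07 (SE, n = 3 against 3, adjusted p = 8.67e-07 by edgeR's quasi-likelihood test). Epithelial and basal markers fitted the label, with all 10 listed genes at 13.7 RPKM or more, and their sum moved from 3600 to 3870 RPKM in shLuc to 6230 to 7110 RPKM in shWDR5 (7 higher, 2 lower). The 7 fibroblast markers (LUM at 0) summed to 3.72 to 4.04 and 2.54 to 3.04 RPKM, the 4 blood markers (CD3E at 0) to 1.68 to 2.07 and 1.57 to 1.83 RPKM, and the 3 endothelial markers to 1.72 to 1.79 and 1.05 to 1.19 RPKM, and their part in the results was not tested. Replicate 1 stood apart in each group. Chi-square per degree of freedom between replicates 2 and 3 was 7.39 in shLuc and 7.15 in shWDR5, and it was 14.3 to 18.2 for every pair that included a replicate 1.

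WDR5 silencing lowered EZH2, CBX7 and, to a small extent, EZH1, and raised JARID2 and CBX8. In the fit over all genes, 3 of the 10 members were lower and 2 were higher at an adjusted p under 0.05. The other 5 (EED, SUZ12, BMI1, RNF2 and CBX2) did not pass. Without replicate 1 of both groups, 3 were lower and 5 higher, while 8980 of 16072 genes tested were called. Without shWDR5 replicate 1 the counts were 3 and 4, while 8560 of 16313 genes were called. Members called lower numbered 2 without shLuc replicate 1, without shWDR5 replicate 2 or without shWDR5 replicate 3. Of all genes tested in those fits, 4584 of 16321, 4271 of 16306 and 4468 of 16322 were called lower. Changes were common in this comparison: 56.5% of the 16117 genes tested were called, 29.9% lower and 26.6% higher, so the members' share of 50% was near the background. Their median log2 fold change was 0.13, beside -0.01 over all genes tested. Under the study's stricter rule, which also asks for a log2 fold change of at least 0.6 in size and more than 0.5 RPKM, 18.4% of genes were called, 10.5% lower and 7.9% higher, and of the members EZH2 and CBX7 (lower) and JARID2 (higher) were called.

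**Figure D1:**
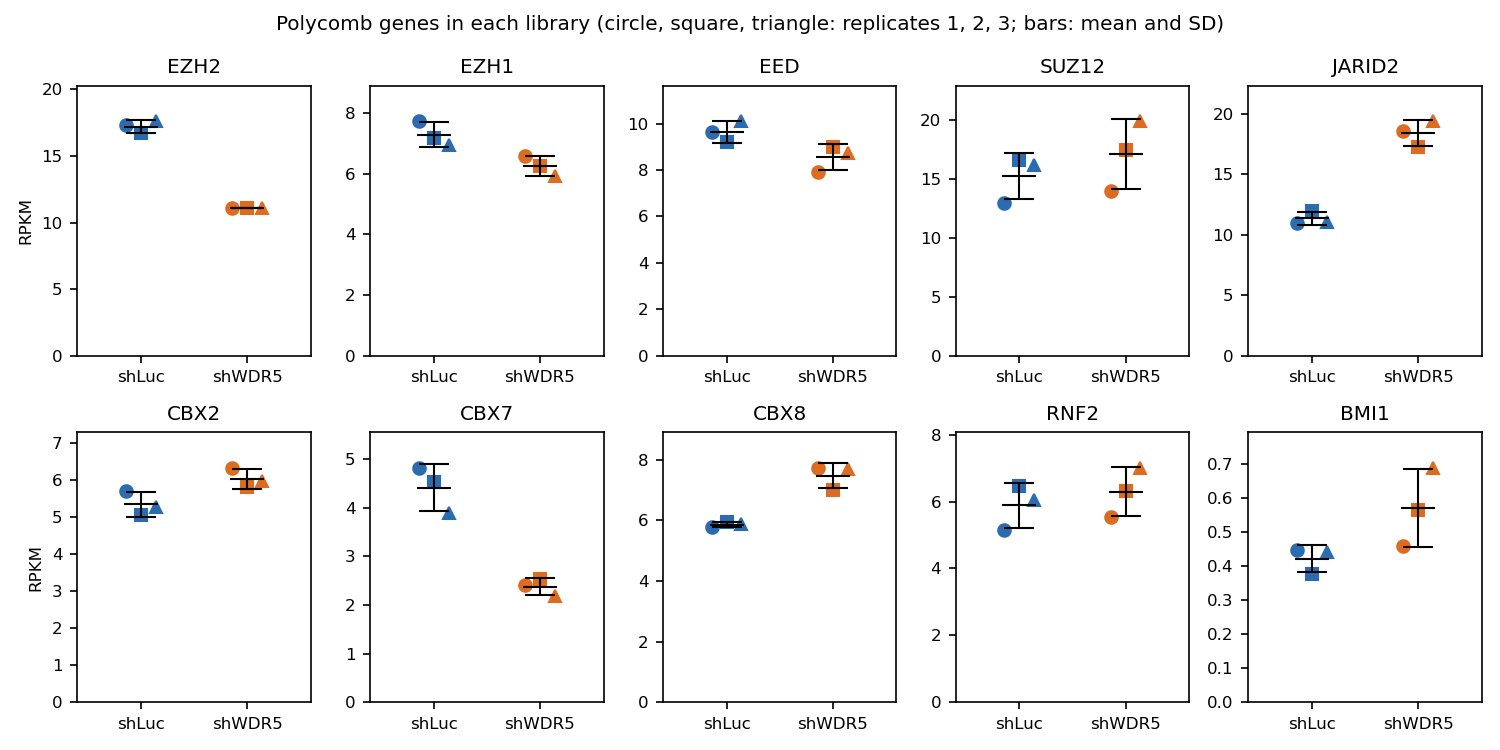
RPKM of the 10 Polycomb genes in each of the 3 shLuc (blue) and 3 shWDR5 (orange) libraries. Each y axis starts at 0, symbols mark the replicate number, and bars give the mean and SD. EZH2 and CBX7 were lower and JARID2 and CBX8 higher in every shWDR5 library, while SUZ12 and RNF2 overlapped and were lowest in replicate 1 of both groups.

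Promoter sequence is shown for the 3 members with the largest changes, EZH2 and CBX7, which fell, and JARID2, which rose. RefSeq promoters (GRCh38.p14) matched 8 of the 10 members, all but CBX2 and CBX8, and for a gene with several entries the most upstream was taken. Each run below is 280 bases, 5′ to 3′ on the gene's strand, from 250 before to 30 after the annotated start. Capitals mark matches on either strand to 5 short motifs: the E2F-type sites TTTGGCGC and TTTCCCGC, the CCAAT box CCAAT, the GC box GGGCGG and the E-box CACGTG. The windows are chr7:148884262-148884541 (minus strand) for EZH2, chr22:39152651-39152930 (minus strand) for CBX7 and chr6:15245819-15246098 (plus strand) for JARID2.
EZH2: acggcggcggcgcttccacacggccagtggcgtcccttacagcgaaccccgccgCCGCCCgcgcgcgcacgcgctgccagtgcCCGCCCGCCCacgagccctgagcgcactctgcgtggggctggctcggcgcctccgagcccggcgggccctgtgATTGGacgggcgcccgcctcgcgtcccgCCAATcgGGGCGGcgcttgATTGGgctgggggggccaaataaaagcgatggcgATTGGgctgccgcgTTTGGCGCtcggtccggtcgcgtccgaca
CBX7: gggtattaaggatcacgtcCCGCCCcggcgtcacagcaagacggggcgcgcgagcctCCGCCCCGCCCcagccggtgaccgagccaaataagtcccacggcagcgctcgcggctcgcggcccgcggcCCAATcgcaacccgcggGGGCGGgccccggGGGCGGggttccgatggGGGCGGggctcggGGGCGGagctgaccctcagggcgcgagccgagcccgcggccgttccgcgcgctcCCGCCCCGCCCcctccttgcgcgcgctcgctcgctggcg
JARID2: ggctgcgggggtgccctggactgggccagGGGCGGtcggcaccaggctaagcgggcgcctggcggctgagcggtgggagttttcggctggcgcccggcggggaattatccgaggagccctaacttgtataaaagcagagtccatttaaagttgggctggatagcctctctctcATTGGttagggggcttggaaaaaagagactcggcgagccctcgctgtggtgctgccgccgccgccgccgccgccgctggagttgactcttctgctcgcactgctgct
The EZH2 window held 1 TTTGGCGC site at the start of transcription, a match found in 0.615% of the 35116 promoter windows searched. It also held 4 CCAAT boxes, a motif with a match in 33.6% of windows, and 4 GC boxes. The CBX7 window held 9 GC boxes, some of them overlapping, and 1 CCAAT box, and the JARID2 window held 1 of each. Of the 8 matched members, 7 had a GC box against 44.1% of all windows, and 5 had a CCAAT box. TTTCCCGC was found in SUZ12 alone and CACGTG in BMI1 alone among the 8 (1.55% and 6.94% of all windows). By base content, EZH2 and CBX7 were at 75% and 78.9% G and C with 45 and 47 CpG dinucleotides, JARID2 at 64.6% with 23, and the median window at 58.2% with 13. These matches describe the windows and were not tested against the expression changes.

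EZH2, the main H3K27 methyltransferase of dividing cells, lies on the minus strand of chromosome 7 (hg19, 148504464 to 148581441). It measured 17.3, 16.7 and 17.6 RPKM in shLuc and 11.1 RPKM in each of the 3 shWDR5 libraries. The groups were well separated and the silenced libraries were nearly identical to each other. EZH2 fell by 35.4%, a log2 fold change of -0.63 ± 0.06 (SE, adjusted p = 6.53e-06). EZH1, the paralog known from resting and differentiated cells, lies on the minus strand of chromosome 17 (40852293 to 40897071). It measured 7.73, 7.18 and 6.93 RPKM in shLuc and 6.57, 6.27 and 5.91 RPKM in shWDR5. The ranges came close but did not overlap, and the log2 fold change was -0.22 ± 0.07 (SE, adjusted p = 0.0192). That call did not hold without shLuc replicate 1 (log2 fold change -0.16, adjusted p = 0.0808), without shWDR5 replicate 2 (-0.22, 0.0572) or without shWDR5 replicate 3 (-0.18, 0.0778), nor with upper-quartile scaling (-0.18, 0.0567).

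The balance of both paralogs shifted within libraries, a comparison that does not depend on scaling between libraries. The EZH2 level per length was 2.24, 2.33 and 2.53 times that of EZH1 in shLuc and 1.7, 1.78 and 1.87 times in shWDR5. No silenced library reached the lowest control value. The log2 ratio differed by -0.41, and its two-sided exact permutation p was 0.1, the smallest that 3 against 3 libraries can give. The RPKM of both methyltransferases summed to 23.9 to 25 in shLuc and to 17 to 17.7 in shWDR5, and EZH2 made up 70.2% ± 1.3 of that sum in shLuc and 64% ± 1.1 in shWDR5 (SD, n = 3).

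EED binds the H3K27 methyl mark and stimulates the enzyme, and SUZ12 is the scaffold of PRC2. EED (chromosome 11, plus strand, 85955426 to 85989852) measured 9.62, 9.19 and 10.1 RPKM in shLuc and 7.93, 9.01 and 8.72 RPKM in shWDR5. Its log2 fold change was -0.17 with a 95% confidence interval of -0.34 to -0.01, and its adjusted p of 0.0655 missed the threshold. SUZ12 (chromosome 17, plus strand, 30264044 to 30328057) measured 13, 16.6 and 16.2 RPKM in shLuc and 14, 17.5 and 19.9 RPKM in shWDR5. The groups overlapped, with replicate 1 lowest in each. The log2 fold change of SUZ12 was 0.17 (95% confidence interval -0.11 to 0.45, adjusted p = 0.28), and it passed without shWDR5 replicate 1 (0.30, adjusted p = 0.0341) and without replicate 1 of both groups (0.21, adjusted p = 0.0208). It was smaller without shLuc replicate 1 (0.082, adjusted p = 0.597) and without shWDR5 replicate 3 (0.047, adjusted p = 0.767). SUZ12P1, a partial pseudogene copy of SUZ12 whose reads can be hard to tell from it, had 121 to 153 reads per library against 2878 to 4455 for SUZ12. The pseudogene went the other way, with a log2 fold change of -0.30 (adjusted p = 0.0497).

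JARID2 is an accessory subunit that brings PRC2 to chromatin and can bind ubiquitinated H2A. It lies on the plus strand of chromosome 6 (15246206 to 15522273). It measured 11, 12 and 11.1 RPKM in shLuc and 18.6, 17.3 and 19.4 RPKM in shWDR5. The lowest silenced library was far above the highest control. JARID2 rose 1.62-fold, a log2 fold change of 0.70 ± 0.06 (SE, adjusted p = 7.92e-06), which is larger in size than that of 80.8% of genes tested. JARID2-AS1, an antisense RNA gene within the locus, had 3 to 7 reads per library and shares no exon bases with JARID2. JARID2 was the third most abundant member per length in shLuc and the first in shWDR5, where its range overlapped that of SUZ12. Of the summed RPKM of EZH1, EZH2, EED, SUZ12 and JARID2, JARID2 took 18.7% ± 0.77 in shLuc and 30% ± 1.9 in shWDR5, and EZH2 took 28.3% ± 1.2 and 18.1% ± 1.1 (SD, n = 3). The sum itself was 60.7 ± 1.76 RPKM in shLuc and 61.5 ± 3.35 RPKM in shWDR5, and those ranges overlapped.

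The 3 CBX genes did not move together. CBX7, a reader of the H3K27 methyl mark often linked to stem cells and senescence control, lies on the minus strand of chromosome 22 (39526779 to 39548538). It measured 4.82, 4.53 and 3.88 RPKM in shLuc and 2.42, 2.54 and 2.18 RPKM in shWDR5. Every silenced library was below every control library by a wide margin. CBX7 fell by 46.1%, a log2 fold change of -0.89 ± 0.10 (SE, adjusted p = 2.67e-05), the largest change in size among the members. CBX8 and CBX2 are neighbours on chromosome 17, on opposite strands with 6726 bases between them. CBX8 (minus strand, 77768176 to 77770915) measured 5.77, 5.94 and 5.88 RPKM in shLuc and 7.74, 7 and 7.69 RPKM in shWDR5. It rose 1.27-fold with no overlap of the groups, a log2 fold change of 0.35 ± 0.07 (SE, adjusted p = 0.00241). CBX2 (plus strand, 77751977 to 77761449) measured 5.71, 5.05 and 5.27 RPKM in shLuc and 6.33, 5.8 and 5.98 RPKM in shWDR5. The lowest silenced library lay just above the highest control. Its log2 fold change of 0.17 (95% confidence interval 0.02 to 0.33) had an adjusted p of 0.055, and it passed without shLuc replicate 1 (0.24, adjusted p = 0.0166) and without replicate 1 of both groups (0.21, adjusted p = 0.0224). Its lowest value was 0.12 (adjusted p = 0.207), without shLuc replicate 2.

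Within libraries, the level of CBX8 was 1.2, 1.31 and 1.51 times that of CBX7 in shLuc and 3.19, 2.76 and 3.53 times in shWDR5. The CBX2 level was 1.18, 1.12 and 1.36 times that of CBX7 in shLuc and 2.61, 2.29 and 2.75 times in shWDR5. Both log2 ratios were higher in every silenced library, by 1.24 and 1.06. The CBX2 level relative to CBX8 was 0.989, 0.851 and 0.896 in shLuc and 0.819, 0.829 and 0.777 in shWDR5, a small drop of the log2 ratio (-0.17). For each of the 4 paralog ratios the exact permutation p was 0.1 and the adjusted value over the 4 was also 0.1, so this exact test could not bring any of them under 0.05 with 3 libraries per group.

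CBX6, a further CBX gene of PRC1, was more abundant per length than CBX2, CBX7 and CBX8. It measured 35.9, 36.4 and 34.6 RPKM in shLuc and 21.9, 22.3 and 21.2 RPKM in shWDR5, and it fell (log2 fold change -0.71 ± 0.05, SE, adjusted p = 1.72e-06). Of the RPKM summed over these 4 genes, CBX6 held 69.5% ± 0.68 in shLuc and 57.8% ± 1.2 in shWDR5 (SD, n = 3). CBX7 went from 8.6% ± 0.72 to 6.31% ± 0.43 of the sum, CBX8 from 11.4% ± 0.39 to 19.8% ± 1.1 and CBX2 from 10.4% ± 0.62 to 16% ± 0.56. Their sum moved from 51.3 ± 1.37 to 37.7 ± 0.646 RPKM (SD, n = 3).

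**Figure D2:**
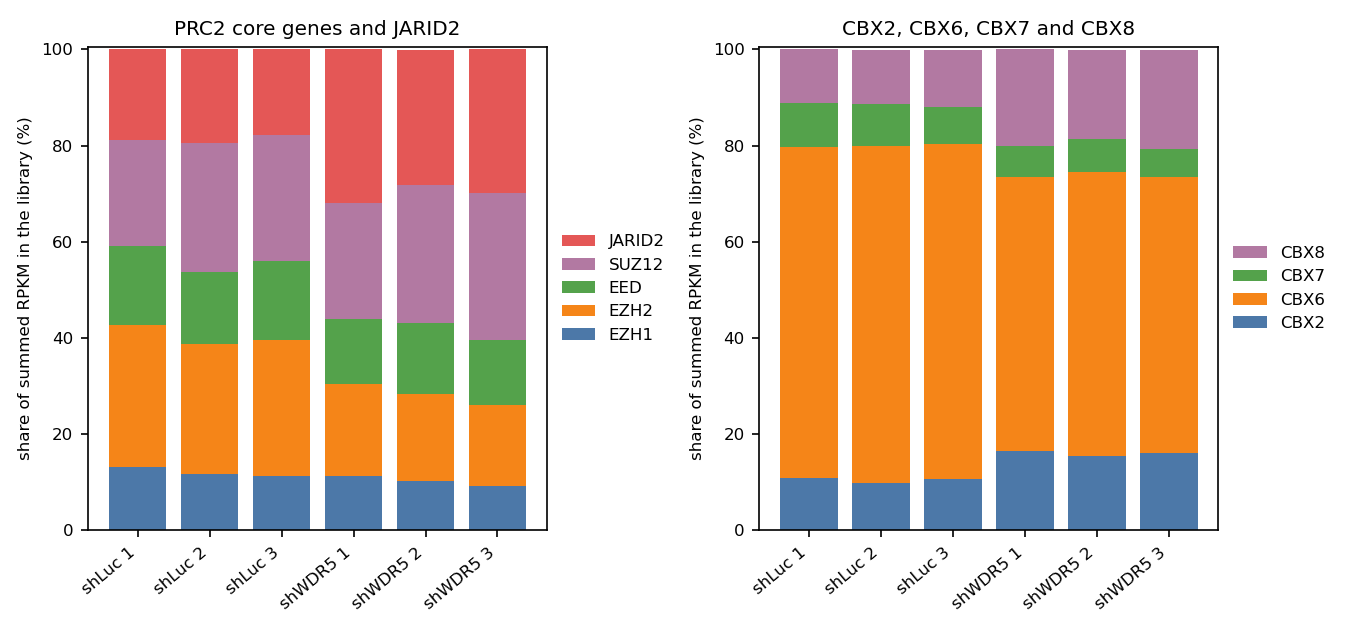
Share of summed RPKM in each library for EZH1, EZH2, EED, SUZ12 and JARID2 (left) and for CBX2, CBX6, CBX7 and CBX8 (right). The y axis is in percent, and each bar is a library. JARID2 widened and EZH2 narrowed in all 3 shWDR5 libraries, and CBX8 widened from 11.4% to 19.8% on average as CBX6 narrowed from 69.5% to 57.8%.

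RNF2, a ubiquitin ligase of PRC1, lies on the plus strand of chromosome 1 (185014551 to 185071740). It measured 5.15, 6.46 and 6.06 RPKM in shLuc and 5.54, 6.32 and 7.01 RPKM in shWDR5. The groups overlapped and replicate 1 was lowest in both. Its log2 fold change was 0.10 with a 95% confidence interval of -0.13 to 0.33 (adjusted p = 0.456), and it passed under none of the 15 alternative fits. The value was 0.014 without shWDR5 replicate 3 and 0.023 without shLuc replicate 1, and it was 0.16 without shLuc replicate 2 and 0.18 without shWDR5 replicate 1 (adjusted p of 0.16 or more in each). The ligase paralog RING1 was at a mean of 18.2 RPKM in shLuc and 17.8 RPKM in shWDR5 (adjusted p = 0.7), so RNF2 made up 24.5% ± 2.8 and 26.1% ± 2.9 of the pair's summed RPKM (SD, n = 3).

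BMI1 (PCGF4), a PCGF subunit known for holding down the INK4a/ARF locus, lies on the plus strand of chromosome 10 (22610139 to 22620414). Its reads were few: 76, 50 and 61 in shLuc and 73, 110 and 107 in shWDR5. Of the 3430 exon bases counted for BMI1, 2943 are shared with the read-through gene COMMD3-BMI1, which has 0 reads in all 6 libraries, and 487 are not shared. The level of BMI1, at 0.448, 0.376 and 0.441 RPKM in shLuc and 0.459, 0.564 and 0.688 RPKM in shWDR5, is therefore uncertain and cannot be ranked against the other members. The lowest silenced library was just above the highest control. The log2 fold change of 0.43 had a wide 95% confidence interval of 0.05 to 0.80 and an adjusted p of 0.0508. It passed in 7 of 14 alternative fits, among them the fit without shWDR5 replicate 1 (0.55, adjusted p = 0.0144) and that without replicate 1 of both groups (0.62, adjusted p = 0.0155), and its lowest value was 0.28 (adjusted p = 0.187), without shWDR5 replicate 3. COMMD3, the upstream neighbour, had a log2 fold change of -0.02 (95% confidence interval -0.20 to 0.16).

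By level per length, the order in shLuc was EZH2, SUZ12, JARID2, EED, EZH1, RNF2, CBX8, CBX2 and CBX7, with means from 17.2 to 4.41 RPKM. Among neighbours in that order, RNF2 and CBX8 overlapped over the 3 libraries. In shWDR5 the order was JARID2, SUZ12, EZH2, EED, CBX8, RNF2, EZH1, CBX2 and CBX7, with means from 18.4 to 2.38 RPKM. There JARID2 overlapped SUZ12, CBX8 overlapped RNF2, RNF2 overlapped EZH1, and EZH1 overlapped CBX2. The RPKM ranges of both groups did not overlap for 8 of the 10 members, while 62.3% of all genes tested were separated in that way.

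Proliferation genes fell, as did EZH2. All 16 listed proliferation markers were lower in shWDR5 (median log2 fold change -0.80, range -1.24 to -0.39), beside 29.9% of all genes tested. Their summed level was 696 to 702 RPKM in shLuc and 405 to 423 RPKM in shWDR5. MKI67, which marks cycling cells, fell by 53.3%, from 41.5 ± 1.8 to 19.4 ± 0.321 RPKM (SD, n = 3, adjusted p = 1.8e-07). MCM5 and MCM6, subunits of the replicative helicase, had log2 fold changes of -1.24 and -1.11, RRM2, a subunit of ribonucleotide reductase, -0.94, and E2F2, a transcription factor of the G1/S step, -1.15. The EZH2 change of -0.63 lay inside the range of these markers, close to that of MCM4 (-0.63) and CCNB1 (-0.63). That was not particular to EZH2, since CBX7 (-0.89), CBX6 (-0.71) and PHF19 (-0.97) also lay inside it. The rise of JARID2 and CBX8 lay outside it. The part of proliferation in the EZH2 change was not tested. In bulk libraries, fewer cells with a transcript and less of it per cell cannot be told apart.

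**Figure D3:**
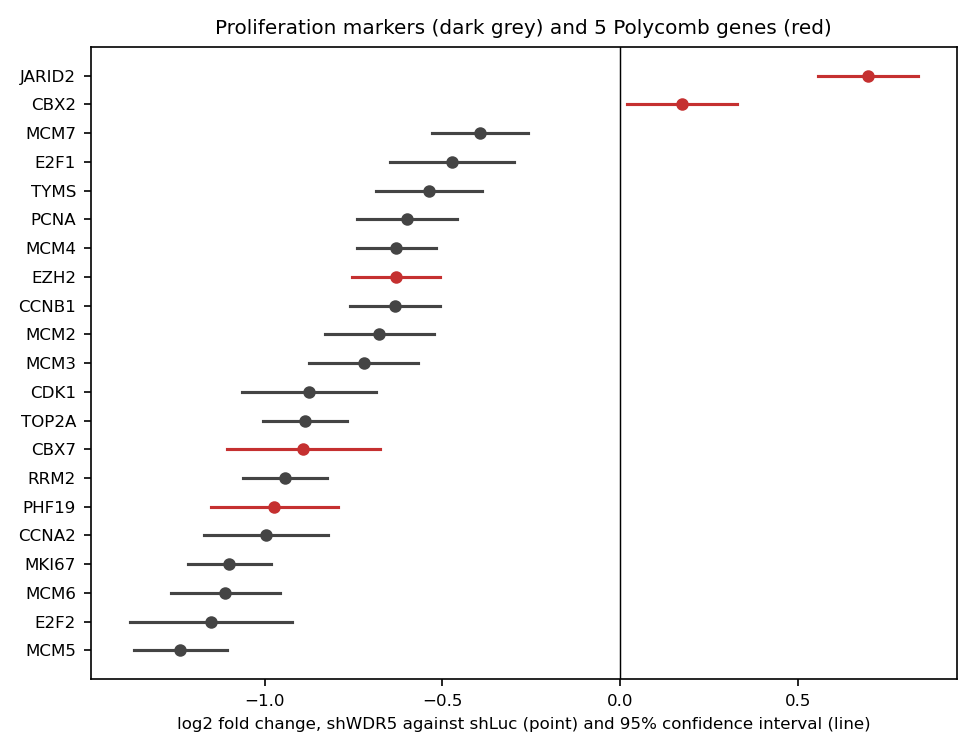
Log2 fold change of shWDR5 against shLuc (point) with its 95% confidence interval (line) for the 16 proliferation markers (dark grey) and for EZH2, CBX7, PHF19, CBX2 and JARID2 (red). EZH2, CBX7 and PHF19 lie among the markers, which span -1.24 to -0.39, and CBX2 and JARID2 lie above 0.

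Of 9 other PRC2 genes, 8 were tested, 4 were lower, 1 was higher and 3 did not pass, beside 29.9% of all genes lower and 26.6% higher. Their median log2 fold change was -0.39. PHF19, a Polycomb-like protein of the PRC2.1 form that binds CpG islands, measured 10, 9.66 and 8.68 RPKM in shLuc and 5.23, 4.47 and 4.78 RPKM in shWDR5. That is a log2 fold change of -0.97 ± 0.08 (SE, adjusted p = 4.2e-06). PHF1, its close relative, had a log2 fold change of -0.55 (adjusted p = 0.000197), and MTF2, the other Polycomb-like gene, 0.13 (95% confidence interval -0.06 to 0.33, adjusted p = 0.21). C17orf96 (EPOP), also of PRC2.1, rose by 0.22 (adjusted p = 0.0299). AEBP2, which shares the PRC2.2 form with JARID2, fell by 0.53 on the log2 scale (adjusted p = 0.00409), opposite to JARID2. RBBP7, a histone-binding subunit found in several complexes, went from 93.4 ± 1.77 to 65.9 ± 1.66 RPKM (SD, n = 3, adjusted p = 1.48e-05), while its paralog RBBP4 had a log2 fold change of -0.09 (95% confidence interval -0.20 to 0.02).

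Of 23 other PRC1 genes listed, 22 were tested, 9 were lower and 2 were higher, beside 29.9% of all genes lower and 26.6% higher. Their median log2 fold change was -0.12. Those higher were PCGF3 (log2 fold change 0.55, adjusted p = 2.35e-05), a PCGF subunit of variant PRC1, and USP7 (0.21, adjusted p = 0.00502), a deubiquitinase. Besides CBX6, those lower included SCML1 (-0.90, adjusted p = 0.000203), SCML2 (-0.41, 0.00573) and SCMH1 (-0.43, 0.00037), relatives of the fly Scm gene, the co-repressor BCORL1 (-0.43, 0.00301) and MGA (-0.53, 7.67e-05), a DNA-binding partner in the PCGF6 form. The polyhomeotic gene PHC1 fell by 0.30 (adjusted p = 0.0037), and its relatives PHC2 and PHC3 were the remaining genes called lower. Among the PCGF genes PCGF3 passed, and PCGF1, PCGF2, PCGF5 and PCGF6 did not. Over both lists 16 of 30 genes tested were called (53.3%), near the 56.5% of all genes in either direction. By direction, 13 were lower and 3 higher, beside 29.9% and 26.6% of all genes. The median log2 fold change over both lists was -0.15, beside -0.01 over all genes tested.

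**Figure D4:**
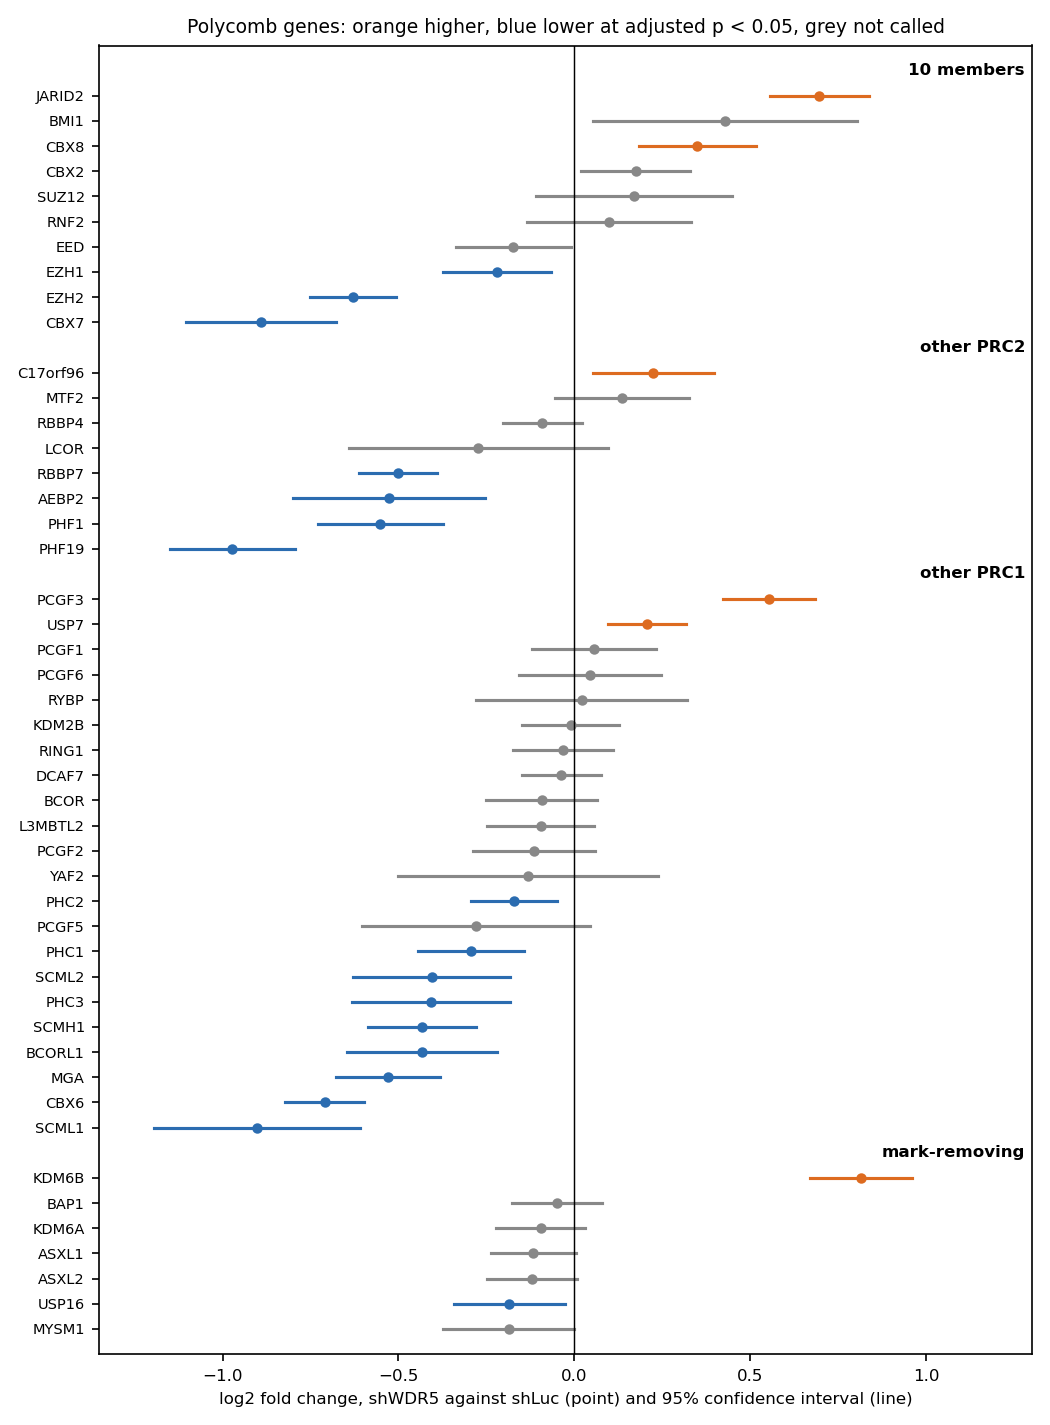
Log2 fold change of shWDR5 against shLuc (point) and 95% confidence interval (line) for the 10 members, 8 other PRC2 genes, 22 other PRC1 genes and 7 genes whose products remove Polycomb marks. Orange and blue mark genes higher and lower at an adjusted p under 0.05, and grey marks the rest. PHF19, SCML1 and CBX7 lie furthest to the left and KDM6B and JARID2 furthest to the right.

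Of the 8 genes for removal of Polycomb marks, 7 were tested. KDM6B (JMJD3), an H3K27 demethylase, measured 9.33, 8.92 and 8.29 RPKM in shLuc and 16.5, 14.8 and 15.5 RPKM in shWDR5, with no overlap, a log2 fold change of 0.82 ± 0.07 (SE, adjusted p = 3.54e-06). Its paralog KDM6A had a log2 fold change of -0.10 (95% confidence interval -0.22 to 0.03, adjusted p = 0.178). The H2A deubiquitinase BAP1 was at -0.05 (95% confidence interval -0.18 to 0.08), and USP16, which also acts on H2A, fell by 0.18 (adjusted p = 0.0477) with no gene of the list lower in the fits without shLuc replicate 2 or without any of the 3 shWDR5 replicates.

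Most textbook Polycomb-repressed developmental genes had few or no reads in both groups. Of 35 listed, 19 had no read in any of the 6 libraries and 8 had enough to be tested. Of those 8, 4 were called (50%), near the 56.5% of all genes tested. Those higher in shWDR5 were NKX2-5, a homeobox gene (log2 fold change 0.61, 6.45 ± 0.513 to 9.88 ± 0.421 RPKM, SD, n = 3, adjusted p = 8.14e-05), and CCND2, a G1 cyclin (0.25, adjusted p = 0.00819). Those lower were LHX1 (-1.03, adjusted p = 0.000382), a LIM-homeobox gene at 0.408 RPKM in shLuc, and EOMES (-0.46, adjusted p = 0.0301), a T-box gene at 0.67 RPKM. Only 1 of the list was lower without shLuc replicate 2, without shLuc replicate 3 or without shWDR5 replicate 1. CDKN2A and CDKN2B, the INK4 genes on which BMI1 and CBX7 are known to act, had 0 reads in every library, and the MCF10A lineage is known to lack that locus.

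The direction of each member was the same in every fit tried. EZH2, CBX7, JARID2 and CBX8 passed in all 15 alternative fits, EZH1 in 11, CBX2 in 6, SUZ12 in 3 and EED in 2.

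**Figure D5:**
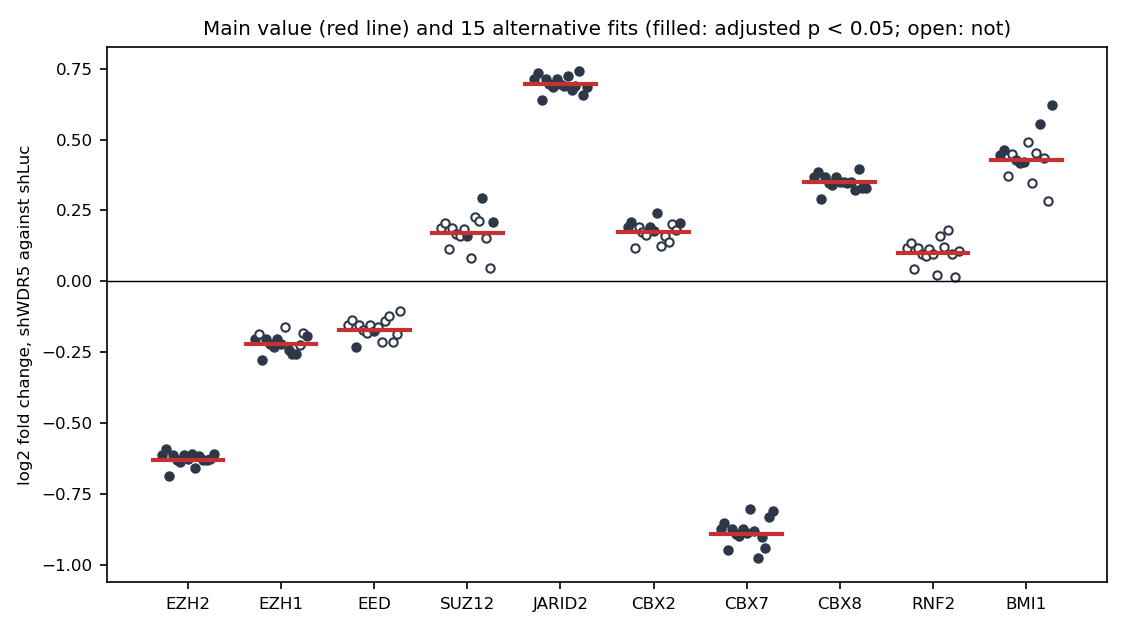
Log2 fold change of each member as reported (red line) and in 15 alternative fits (14 for BMI1), as filled points where the adjusted p was under 0.05 and open points elsewhere. No point crosses 0. EZH2 ranged from -0.69 to -0.59 and JARID2 from 0.64 to 0.74 over those fits.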

How the data were processed

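RNA-seq counts of 6 libraries were used, 3 per group as the labels give them. According to the methods and labels, the authors aligned reads to hg19 with TopHat2 (2.1.0) and deposited raw counts of reads per gene from featureCounts, with exon coordinates and summed exon length. Whether counting used strand is not given in the sources used here. The deposited counts (38218108 to 57640167 per library) were fitted here with edgeR 4.0.16 (filterByExpr, TMM scaling, quasi-likelihood F test, Benjamini-Hochberg adjustment over 16117 genes) in R 4.3.3. The common biological coefficient of variation was 7.23%. RPKM was computed from counts, exon length and TMM-scaled totals. The SE is the log2 fold change over the square root of F, and intervals are at 95%. Ratios within libraries were compared by two-sided exact permutation tests. DESeq2 1.42.0, other scalings, filters and tests, and fits leaving out a library were alternatives. Named genes were all members, WDR5, overlapping or near-identical partners, and up to 10 called genes per list by adjusted p. Paralogs and family members outside that rule (MTF2, RBBP4, KDM6A, BAP1, RING1, PHC2, PCGF1, PCGF2, PCGF5 and PCGF6) were named after their values were seen. CDKN2A, CDKN2B, LUM and CD3E, listed genes with no read in any library, were also named outside that rule. Members and lists were chosen with earlier results of these data known. A member's reads can be split with overlapping or copied genes by such counting. A gene of the wider PRC1 list is not reported here.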

Additional observations from a re-analysis of the deposited data

How the results depend on the processing

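Of the values compared over all alternatives, 350 were kept, 28 moved, 18 became significant, 6 lost significance and 0 reversed. For genes, kept meant the same direction and side of the threshold, and for counts a value within 1.5 times. For the paralog ratios it meant a shift from the main value below the larger of both group SDs. Median log2 fold change over all genes lay between -0.0679 (library totals) and 0.0256 (upper-quartile scaling). Members called higher numbered 4 with RLE or upper-quartile scaling, while 4497 and 4663 of 16117 genes tested were called higher. With the study's rule 1 member was higher. Removal genes called lower numbered 0 with RLE, upper-quartile scaling, DESeq2 or the RPKM filter and 5 with library totals. Repressed developmental genes called lower numbered 4 with library totals or the likelihood-ratio test and 1 with DESeq2 or the RPKM filter. Over all genes, 5498 were lower with library totals, 4912 with the likelihood-ratio test and 4618 with RLE. With upper-quartile scaling 4390 were lower, with DESeq2 4351 and with the RPKM filter 4333 (of 13553 tested there). Under the study's rule 2962 genes were called (1274 higher, 1688 lower), and EZH1 (-0.22) and CBX8 (0.35) were not. EZH1 was lost with upper-quartile scaling (-0.18). EED was gained with library totals (-0.23). BMI1 was gained with RLE (0.44), upper-quartile scaling (0.46), the likelihood-ratio test (0.43) and no filter (0.42), and could not be fitted under the RPKM filter. CBX2 was gained with RLE (0.19), upper-quartile scaling (0.21) and the RPKM filter (0.19). The causes were not tested.

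With 1 library (or replicate 1 of both groups, an alternative chosen after seeing the data) left out, the ranges were 2 to 5 members higher, 0 to 2 removal genes lower, 1 to 3 developmental genes lower, EZH1 -0.26 to -0.16, EED -0.22 to -0.11, SUZ12 0.047 to 0.30, RNF2 0.014 to 0.18, BMI1 0.28 to 0.62 and CBX2 0.12 to 0.24. Over the same fits, 3803 to 4315 of all genes tested were called higher and 4271 to 4665 lower.

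Groups share replicate numbers, but the labels do not say that a number marks a pair, so the main fit took none. The deviations of same-numbered libraries correlated with r of 0.636 for replicate 1, 0.0815 for replicate 2 and 0.242 for replicate 3. The deviations of shLuc replicate 2 correlated best with those of shWDR5 replicate 3 (0.44). Deviations were taken from the mean of each group's 3 libraries, so these correlations are not independent and cannot settle pairing. With the replicate number as a block, 10412 genes were called (4901 higher, 5511 lower), 5 members were higher and 4 lower, and 4 removal genes were lower. EED (-0.17, adjusted p = 0.026 by edgeR), SUZ12 (0.16, 0.015), BMI1 (0.42, 0.0383) and CBX2 (0.18, 0.00816) passed.

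Low counts limit BMI1, with at most 110 reads per library, and leave 27 of the 35 developmental genes untested. Most BMI1 exon bases are shared with COMMD3-BMI1, and 19 of the 35 had no read in any library. The part of depth in these low counts was not tested. With 3 libraries per group no exact permutation p can go below 0.1.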
